A study of Mus musculus with 12 samples.

Results

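The chemokines, the interleukins and their receptors were described in mouse heart after loss of Mrpp3, the gene for the protein-only endonuclease subunit (now also named Prorp) that cuts mitochondrial transcripts at the 5′ ends of tRNAs. The family was taken by gene symbol alone: every locus whose listed symbols begin with Ccl, Cxcl, Ccr, Cxcr or Ackr and a number, Cx3cl1 and Cx3cr1, and every symbol of Il followed by a number. This gave 144 loci of the 44450 in the deposited tables, carrying 142 symbols, and 5 of the 144 loci were merged with a neighbouring gene by the transcript assembly. Of the 144 loci, 41 reached 1 FPKM (fragments per transcript length, scaled to the mapped fragments of the library) in at least 3 of the 6 libraries and were tested, 76 were above 0 in at least 1 library but under that level, and 27 were listed at 0 in all 6. By role, the 144 loci comprised 39 of chemokine ligands, 22 of chemokine receptors, 39 of interleukin ligands and soluble antagonists, 42 of interleukin receptor chains, and 2 that are neither.

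Both groups were C57BL/6N mice aged 11 weeks, with loxP sites in both copies of Mrpp3 (Mrpp3 loxP/loxP). The knockouts also carried 1 copy of Ckmm Cre, a recombinase driven by the promoter of muscle creatine kinase, which is active in heart and skeletal muscle cells and not in leukocytes, fibroblasts or endothelium. The controls carried no Cre, so presence of the recombinase and loss of Mrpp3 cannot be told apart. Total RNA of whole hearts, depleted of ribosomal RNA, was sequenced in 3 control and 3 knockout libraries, and the labels number the replicates without saying that each is its own animal, so that p-values measure the spread between these libraries. In such bulk tissue, fewer cells of a type and less RNA per cell cannot be told apart.

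Chemokines are small secreted proteins, classed by the spacing of their first cysteines into the CC, CXC and CX3C groups, which bind G protein-coupled receptors on leukocytes and direct their movement. The atypical receptors (Ackr) bind chemokines without coupling to G proteins and take them out of the tissue. Interleukins act through paired receptor chains: many use JAK kinases and STAT factors, while the interleukin-1 and interleukin-17 groups act through adaptors that activate NF-kappaB. In heart, resident macrophages, fibroblasts, endothelium and cardiomyocytes are all known to make some of these messengers.

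A run of CC chemokine genes on chromosome 11 held calls in both directions: Ccl12 and Ccl8 were higher and Ccl11 was lower in the knockouts. The 250 bases before the transcript starts of Ccl12 and Ccl8 are shown because these adjacent genes carried the largest rises among the called members. They are RefSeq sequences of GRCm38.p6, read 5′ to 3′ on the plus strand, from chr11:82101595-82101844 and chr11:82114935-82115184. Windows for Ccl2, Ccl7 and Ccl11 were not used here. Capitals mark a TATA box, searched as the letters TATAAAA.
Ccl12: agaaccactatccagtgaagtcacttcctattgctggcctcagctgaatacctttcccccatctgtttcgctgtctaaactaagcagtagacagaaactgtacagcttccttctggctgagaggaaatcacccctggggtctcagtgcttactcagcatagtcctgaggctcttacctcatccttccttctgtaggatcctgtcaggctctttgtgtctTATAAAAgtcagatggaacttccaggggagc
Ccl8: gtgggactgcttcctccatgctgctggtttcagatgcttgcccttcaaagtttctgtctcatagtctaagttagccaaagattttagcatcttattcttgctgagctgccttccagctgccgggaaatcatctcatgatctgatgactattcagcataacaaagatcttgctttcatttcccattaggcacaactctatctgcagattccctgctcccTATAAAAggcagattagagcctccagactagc

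The motif in capitals began 31 bases before the start in Ccl12 and 32 bases before it in Ccl8. On either strand, 4.98% of all 32851 RefSeq windows of this length held it. Counted by member rather than by window, at any start of the gene, 4 of the 13 called family members with a window held it. They were Ccl12, Ccl8, Ackr3 and Ackr4, and the motif was chosen after the Ccl12 and Ccl8 sequences were seen. At the same distance from the start, Ccl12 and Ccl8 had the same base at 90 of 250 positions. Their longest shared run was the 8 bases ggaaatca, which began 128 bases before the start in both. Neither window held, on either strand, an AP-1 site (TGACTCA), a STAT site (TTCNNNGAA), an interferon-stimulated element (GAAA, then 2 bases of any kind, then GAAA), a C/EBP-ATF site (TGATGNAA) or the NF-kappaB consensus. These motifs were found in 4.46%, 7.02%, 2.98%, 3.45% and 7.25% of all windows. Among the 13 called members with a window, again at any start, the only member with a match to any of these 5 was Il15ra, with an AP-1 site.

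The libraries were first checked against their labels. The Mrpp3 locus, listed as 1110008L16Rik, was at 3.49, 2.64 and 3.23 FPKM in control hearts against 0.441, 0.701 and 0.555 in the knockouts, a log2 difference of -1.77 ± 0.17 (SE; limma, adjusted p = 0.00063). Markers of ventricular cardiomyocytes were abundant in all libraries, with summed levels of 30054 to 34003 FPKM in controls and 6438 to 14359 in knockouts, and 6 of 8 were called lower. Atrial markers summed to 42.9 to 122 FPKM in controls and 2072 to 14334 in knockouts (2 of 4 called higher), and red cell markers to 1572 to 2903 and 622 to 21899 (none of 5 called in limma, none at an unadjusted p under 0.05). Knockout replicate 2 stood apart as the highest library in both sums. Nppa supplied most of the atrial sum in every library, at 1948, 10527 and 2327 FPKM in knockout replicates 1 to 3. Nppa, Bmp10 and Dkk3 had all knockouts above all controls, and Dkk3 reached 1 FPKM in the knockouts alone. Myl7, Myl4 and Sln overlapped between groups, with Myl7 at 0.0961 FPKM and Sln at 0 in knockout replicate 3. The files give no read totals, but the spacing of low values placed relative depth at 1 to 1.35 in the controls and 2.06 to 2.57 in the knockouts. The deeper libraries were thus all knockouts.

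Lists of markers for the cell types that a heart sample can hold were read in the same way. Of 14 macrophage and monocyte markers, 9 were called higher and 0 lower in limma (none lower at an unadjusted p under 0.05), and their sum was 178 to 195 FPKM in controls and 267 to 304 in knockouts. Among the 9, Fcgr1 reached 1 FPKM in the knockouts alone. Of 8 fibroblast markers 4 were called higher (Postn, Col1a1, Col1a2 and Tcf21), with sums of 310 to 378 and 321 to 476. The other fibroblast markers were not called, with log2 differences of -0.31 for Dcn, -0.26 for Pdgfra, -0.35 for Dpt and 0.63 for Lum. Dcn had all knockouts below all controls. None of 8 markers of blood vessel endothelium was called (222 to 234 against 207 to 292, with 2 lower at an unadjusted p under 0.05), while lymphatic endothelium (32.7 to 34.2 against 22.6 to 29.0) and smooth muscle (219 to 230 against 136 to 192) each had 1 of 6 higher and 1 lower. Lymphocyte markers were low: T cell sums were 1.06 to 2.66 FPKM in controls and 0.906 to 3.43 in knockouts, B cell sums 3.09 to 4.85 and 2.31 to 6.21, and natural killer cell sums 0.427 to 0.969 and 0.404 to 1.15. Summed levels overlapped between groups for neutrophils (1.80 to 3.18 against 1.17 to 11.2), mast cells (1.44 to 4.23 against 3.24 to 10.4), dendritic cells (6.87 to 9.68 against 6.56 to 7.76) and platelets (18.3 to 22.1 against 14.2 to 42.3). In limma, of the tested markers of these last 4 types and of B cells, none was called, and 1 dendritic cell marker, Zbtb46, was lower at an unadjusted p under 0.05. Zbtb46 made up most of the dendritic cell sum in every control, and of the low markers of that list Flt3, Itgax and Xcr1 had all knockouts above all controls, with limma adjusted p of 0.0495, 0.0792 and 0.0346 at a filter of 0.1 FPKM. The other low markers of the list, Siglech and a Clec9a locus merged with Clec1b, overlapped. Their log2 differences at that filter were -0.24 and 0.37 (limma, adjusted p = 0.41 and 0.57). Flt3 and Xcr1 passed that filter through the knockouts alone, so a difference was built into their selection. At that filter Cma1 of the mast cell list and Csf3r of the neutrophil list were also called higher (limma, adjusted p = 0.0317 and 0.0433). Cpa3, Retnlg and Pax5 had all knockouts above all controls and were not called there. No marker of the neutrophil, mast cell, dendritic cell, platelet and B cell lists was called lower at that filter. No marker of any list was at 0 in all 6 libraries, except a second Pdpn locus.

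Among the 41 tested family loci, 11 were called higher and 9 lower in the knockouts, which is 48.8% called, by limma at a Benjamini-Hochberg adjusted p under 0.05 across all 12181 loci tested. Over all tested loci 35.7% were called, 16.1% higher and 19.5% lower. When libraries were scaled to the same summed FPKM, the median log2 difference of all loci moved from -0.02 to 0.19 and the calls over all loci from 1966 higher and 2377 lower to 3229 and 1402. The family's calls were then 14 higher and 6 lower, and without knockout replicate 2 they were 10 higher and 9 lower. The median log2 difference was 0.23 over the 41 family loci. Of the 41 loci, 5 passed the filter through the knockouts alone (among them Ccl12, Il17ra, Ccr2 and Ackr4) and 2 through the controls alone (Ccl11 and Ccl24), so a difference was built into their selection. The groups did not overlap for 12 tested members with knockouts above (23.6% over all tested loci) and 11 with knockouts below (28.7%).

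**Figure D1:**
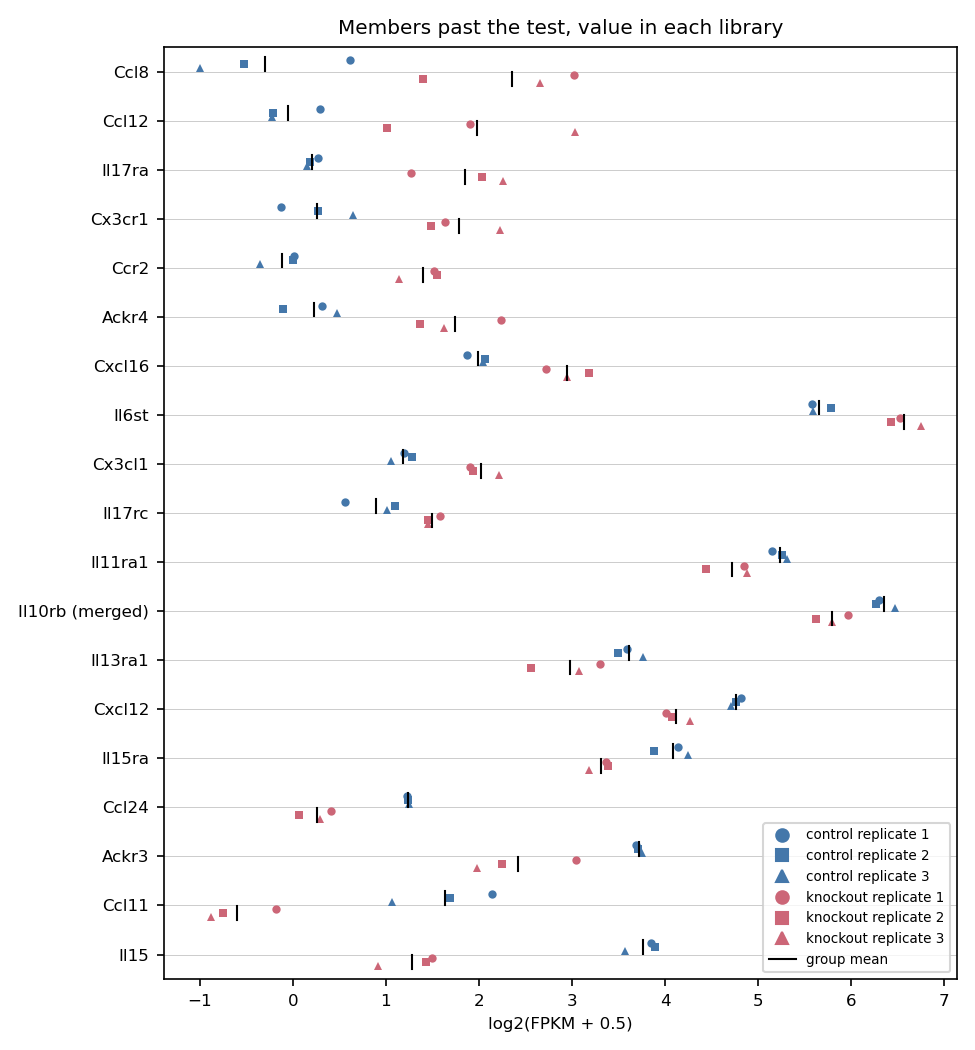
Level of 19 family members past the test in each library, as log2(FPKM + 0.5), with 3 controls in blue, 3 knockouts in red and a bar at each group mean. The members are ordered from Ccl8, with a log2 difference of 2.66, to Il15, at -2.49, and in none of the 19 do the groups overlap.

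The chemokine ligands moved in both directions: of 15 tested, 4 were called higher, 3 lower and 8 in neither direction, with a median log2 difference of 0.10 beside -0.02 for all loci. These calls were 26.7% higher and 20% lower, beside 16.1% and 19.5% over all tested loci. Summed over the 39 ligand loci, the level was 61.0 to 71.2 FPKM in the controls and 69.1 to 77.7 in the knockouts.

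Ccl8 (chr11:82115185-82116799), which attracts monocytes and other leukocytes, was listed at 1.04, 0.197 and 0 FPKM in control replicates 1 to 3 and at 7.61, 2.13 and 5.79 in knockout replicates 1 to 3. Every knockout was above every control, and the log2 difference was 2.66 ± 0.52 (SE; limma, adjusted p = 0.0077). Ccl12 (chr11:82101845-82103399), a monocyte attractant that acts on Ccr2, was listed at 0.722, 0.366 and 0.358 FPKM in the controls and 3.24, 1.52 and 7.67 in the knockouts. Its groups did not overlap either, and the knockout values spread over a wide range (2.03 ± 0.47, limma, adjusted p = 0.014). Without control replicate 3 the limma adjusted p of Ccl12 was 0.0511, the highest over its 16 alternatives, and the lowest was 0.00052.

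Ccl11 (chr11:82057832-82062955), the eosinophil attractant eotaxin, went the other way. It was at 3.91, 2.73 and 1.60 FPKM in control hearts against 0.380, 0.0947 and 0.0446 in the knockouts. All 3 knockouts lay under the lowest control, and the log2 difference was -2.24 ± 0.32 (limma, adjusted p = 0.0023). Because its knockout values lie below the pseudocount of 0.5, that difference was -3.49 with a pseudocount of 0.1. Ccl24 (chr5:135569935-135573123), a second eotaxin that shares the receptor Ccr3, was at 1.84, 1.86 and 1.88 FPKM in control hearts against 0.831, 0.545 and 0.724 in the knockouts. It too fell without overlap, by 0.98 ± 0.17 on the log2 scale (limma, adjusted p = 0.0043). Their receptor Ccr3 was under the filter, at 0 in all 3 controls.

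Ccl11, Ccl12 and Ccl8 lie side by side between Ccl2 and Ccl1 (chr11:82035577-82179812). Of the other genes there, Ccl2, the main monocyte attractant, was at 0.905, 1.26 and 1.74 FPKM in controls and 2.29, 3.08 and 1.58 in knockouts, which overlap (log2 difference 0.64 ± 0.26, limma, adjusted p = 0.090). Ccl2 passed the limma threshold under the summed FPKM scaling (adjusted p = 0.0465), with array weights (0.0185) and without knockout replicate 3 (0.0416). Ccl7, another monocyte attractant, was at 1.27, 0.747 and 1.36 FPKM against 1.59, 1.77 and 1.35, also overlapping (0.37 ± 0.21, limma, adjusted p = 0.20). Ccl1 was listed at 0 in all 6 libraries. The second CC run on this chromosome, from Ccl5 to Ccl4 (chr11:83525778-83664683), held 2 tested genes, Ccl9 and Ccl6, and neither was called.

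**Figure D2:**
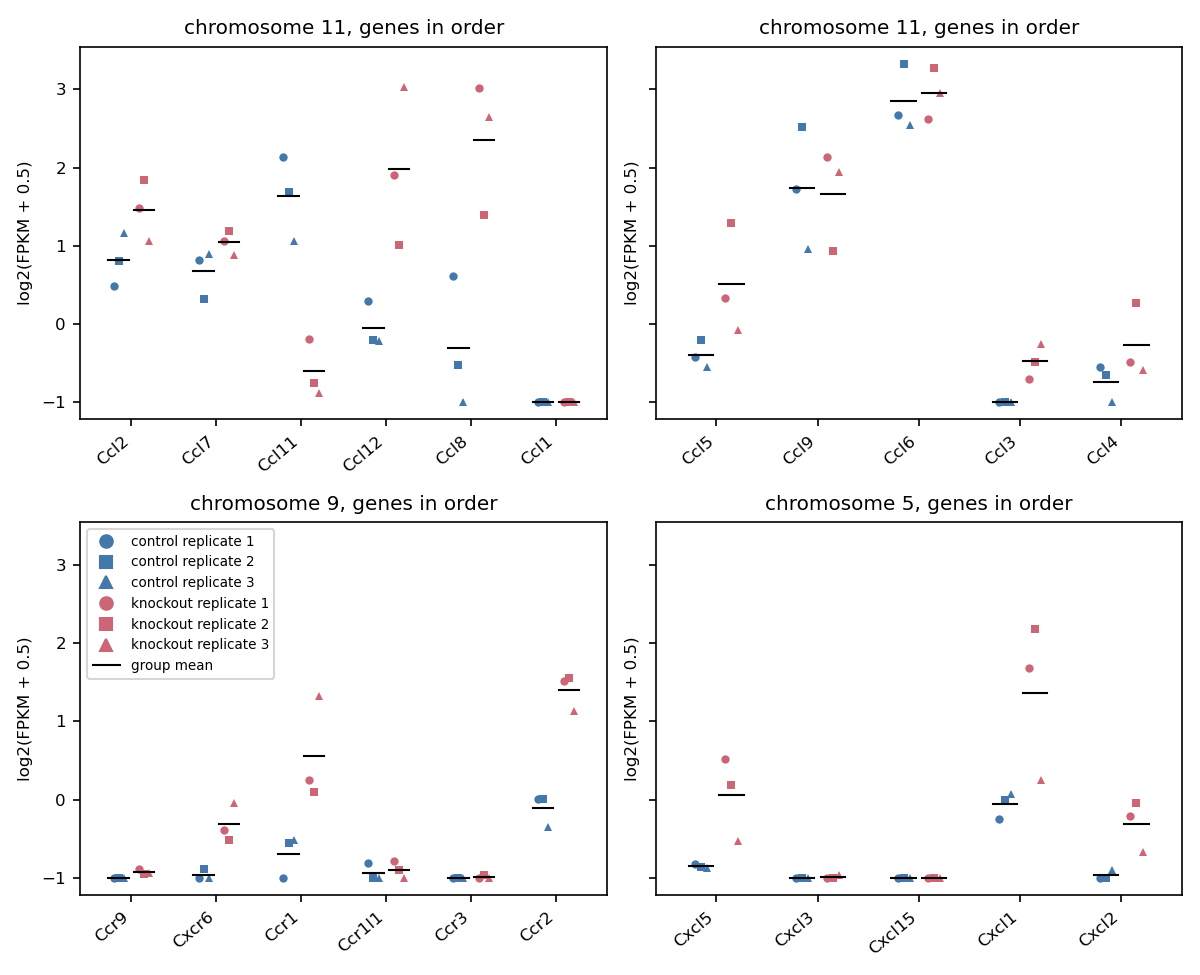
Level in each library, as log2(FPKM + 0.5), of family genes in chromosomal order in 4 neighbourhoods; points are libraries and bars are group means. In the first panel Ccl11 is lower and Ccl12 and Ccl8 are higher in all 3 knockouts, and Ccl1 sits at the floor of -1, which stands for 0 FPKM.

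Among the CXC ligands, Cxcl12 (chr6:117168535-117181368) had the highest mean FPKM of the 39 chemokine ligand loci in both groups. It binds Cxcr4 and the atypical receptor Ackr3 and is known to be made by stromal and endothelial cells. Cxcl12 was at 27.6, 26.7 and 25.7 FPKM in control hearts against 15.7, 16.3 and 18.8 in the knockouts. The groups were separate and each was tight, with a log2 difference of -0.64 ± 0.12 (limma, adjusted p = 0.0056), or -0.42 under the summed FPKM scaling (limma, adjusted p = 0.0249). Cxcl16 (chr11:70454389-70459984), a membrane-bound chemokine and scavenger receptor of macrophages, was at 3.17, 3.69 and 3.62 FPKM in control hearts against 6.11, 8.59 and 7.19 in the knockouts. It rose by 0.96 ± 0.15 on the log2 scale (limma, adjusted p = 0.0032). Its receptor Cxcr6 was under the filter and is described with the low members. Cxcl14, a constitutive tissue chemokine, was at 7.83, 7.06 and 5.66 FPKM against 3.96, 1.83 and 5.38, with all knockouts below all controls but outside the threshold (-0.89 ± 0.32, limma, adjusted p = 0.066). Cxcl14 passed with array weights (limma, adjusted p = 0.00949) and without knockout replicate 3 (-1.18, adjusted p = 0.0238), and was at -0.51 without knockout replicate 2 (adjusted p = 0.0727).

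Cx3cl1 (chr8:94772180-94782427), or fractalkine, is the single CX3C chemokine and the ligand of Cx3cr1. It was at 1.79, 1.93 and 1.59 FPKM in control hearts against 3.23, 3.34 and 4.13 in the knockouts, and rose by 0.84 ± 0.15 on the log2 scale (limma, adjusted p = 0.0050). The ligands past the filter that were in neither direction also included Ccl6 (6.92 ± 2.28 FPKM in controls and 7.37 ± 1.78 in knockouts, SD, n = 3 each) and Ccl9 (3.17 ± 1.93 and 2.88 ± 1.30), both myeloid chemokines. Cxcl9, an interferon-induced attractant of T cells, was at 1.40 ± 0.40 and 1.33 ± 0.09 FPKM. Ccl25, a thymus and gut chemokine, was at 0.977 ± 0.568 and 1.19 ± 0.30. Ccl27a, known from skin, was at 6.63 ± 0.82 and 5.55 ± 0.52 FPKM, and its locus overlaps that of Il11ra1 by a few bases and has near-identical copies, so its counts are uncertain.

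Of 6 chemokine receptors tested, 4 were called higher, 1 lower and 1 in neither direction, with a median log2 difference of 1.51. That is 66.7% higher and 16.7% lower, beside 16.1% and 19.5% over all tested loci. Of the 4 higher receptors, 3 passed the filter through the knockouts alone, Ccr2 and Ackr4 among them, so the filter itself favoured a high count and median. The summed level of the 22 receptor loci was 19.6 to 21.6 FPKM in the controls and 22.8 to 28.3 in the knockouts.

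Ccr2 (chr9:124101918-124109140), the receptor that marks recruited monocytes, was at 0.508, 0.501 and 0.283 FPKM in control hearts against 2.36, 2.43 and 1.70 in the knockouts. The log2 difference was 1.51 ± 0.20 (limma, adjusted p = 0.0018). Cx3cr1 (chr9:120048683-120068296), the fractalkine receptor of monocytes and resident macrophages, was at 0.419, 0.702 and 1.07 FPKM against 2.61, 2.31 and 4.17. Its log2 difference was 1.52 ± 0.27 (limma, adjusted p = 0.0051). Ccr2 and Cx3cr1 moved with the macrophage marker sum given above, and the part of that cell type in their rise was not tested. The T cell marker sum overlapped between the groups.

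The atypical receptors went in opposite directions. Ackr4 (chr9:104097682-104126643), which takes up Ccl19, Ccl21 and Ccl25, was at 0.739, 0.427 and 0.894 FPKM in control hearts against 4.20, 2.08 and 2.58 in the knockouts. It rose by 1.51 ± 0.27 on the log2 scale (limma, adjusted p = 0.0050). Ackr3 (chr1:90203980-90215724), the scavenger of Cxcl12, was at 12.4, 12.6 and 13.0 FPKM in control hearts against 7.72, 4.26 and 3.44 in the knockouts. It fell by 1.30 ± 0.25 on the log2 scale (limma, adjusted p = 0.0076), and by 0.84 where array weights gave knockout replicates 2 and 3 less weight. The signalling receptor for the same ligand, Cxcr4, was at 4.49, 3.56 and 4.08 FPKM against 5.83, 8.41 and 3.73. Its groups overlapped (0.45 ± 0.26, limma, adjusted p = 0.21), and knockout replicate 2 was the highest library. Without knockout replicate 2 the difference of Cxcr4 was 0.19 (limma, adjusted p = 0.491), without knockout replicate 3 it was 0.73 (limma, adjusted p = 0.0271), and with array weights it was 0.51 (limma, adjusted p = 0.0232).

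Few interleukin ligands were expressed at a testable level: 6 of 39 loci passed the filter, 18 were low and 15 were listed at 0 in all libraries. Of the 6, 1 was called lower and 0 higher in limma, with 0 higher and 2 lower at an unadjusted p under 0.05, and a median log2 difference of -0.31. The share called lower was 16.7%, near the 19.5% over all tested loci, of which 16.1% were higher. The summed level of the 39 loci was 25.1 to 28.6 FPKM in the controls and 12.8 to 20.5 in the knockouts. Il15 supplied 11.3 to 14.3 FPKM of the sum in the controls and 1.38 to 2.33 in the knockouts.

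Il15 (chr8:82331624-82403252), a cytokine that keeps natural killer cells and memory CD8+ T cells alive and is known to be abundant in muscle, was at 13.9, 14.3 and 11.3 FPKM in control hearts against 2.33, 2.19 and 1.38 in the knockouts. Every knockout was far under the lowest control, and the log2 difference was -2.49 ± 0.19 (limma, adjusted p = 0.00031). Il15ra (chr2:11705172-11733985), the chain that carries Il15 to the surface of the cell that makes it, was at 17.1, 14.2 and 18.5 FPKM in control hearts against 9.78, 9.98 and 8.60 in the knockouts. It also fell, by 0.78 ± 0.14 on the log2 scale (limma, adjusted p = 0.0049). The other chains of the Il15 receptor were not called: Il2rg, merged here with neighbouring genes, was at 3.27 ± 0.22 and 3.63 ± 1.43 FPKM (limma, adjusted p = 0.87), and Il2rb was under the filter. Ventricular cardiomyocyte markers fell in the same libraries, and their part in the fall of Il15 and Il15ra was not tested. The natural killer and T cell markers, which include cells that respond to Il15, were low in both groups, and their sums overlapped. Of the single markers, only Eomes did not overlap, at 0 in every control and 0.0231, 0.0321 and 0.0241 FPKM in the knockouts.

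The other 5 interleukin ligands and antagonists past the filter were in neither direction. Il33, an alarmin of stromal nuclei, was at 1.39 ± 0.57 FPKM in controls and 2.09 ± 1.09 in knockouts. Il34, a ligand of the macrophage receptor Csf1r, was at 1.90 ± 0.46 and 2.60 ± 1.30, and passed the threshold with array weights alone (limma, adjusted p = 0.0442). Il16, a ligand of Cd4, was at 3.27 ± 0.49 and 2.48 ± 0.34 FPKM, with all knockouts under all controls (limma, adjusted p = 0.13). Il17d was at 1.71 ± 0.49 and 0.833 ± 0.348 (limma, adjusted p = 0.059), and passed with quantile normalization, with no variance trend and without knockout replicate 1 (limma, adjusted p 0.0418, 0.0485 and 0.0388). Il18bp, the soluble decoy for interleukin-18, was at 4.63 ± 0.12 and 3.85 ± 1.34 FPKM.

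Interleukin receptor chains were the most abundant role per length, summing over 42 loci to 211 to 226 FPKM in the controls and 202 to 235 in the knockouts. The Il10rb locus, merged with Ifnar2 and Gm21970, supplied 76.7 to 88.1 FPKM of the sum in the controls and 48.7 to 62.0 in the knockouts. Of 13 receptor chains tested, 3 were called higher, 4 lower and 6 in neither direction, with a median log2 difference of 0.17. That is 23.1% higher and 30.8% lower, beside 16.1% and 19.5% over all tested loci. Il6st (chr13:112464070-112506860), or gp130, is the signalling chain shared by interleukin-6, interleukin-11, Lif and cardiotrophin. It was at 47.2, 54.7 and 47.7 FPKM in control hearts against 91.2, 85.9 and 107 in the knockouts. The groups were well apart, and it rose by 0.92 ± 0.14 on the log2 scale (limma, adjusted p = 0.0030). Of the chains that pair with it, Il11ra1 (chr4:41760443-41769473) was at 35.0, 37.6 and 39.2 FPKM against 28.2, 21.2 and 29.0, with every knockout lower (-0.51 ± 0.15, limma, adjusted p = 0.033). The call of Il11ra1 was lost in 7 of 16 alternatives, among them the summed FPKM scaling (limma, adjusted p = 0.108), the fit with a replicate block (0.0618) and the removal of control replicates 1, 2 or 3 (0.0719, 0.105 and 0.109) or of knockout replicate 1 (0.0503). Il11ra1 also has a near-identical copy, Il11ra2, so its reads may be split. Il6ra, the other specific chain, was under the filter at 1.35, 0.783 and 0.871 FPKM against 0.695, 0.855 and 1.36, with overlap.

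Of the interleukin-17 receptor chains, Il17ra and Il17rc rose. Il17ra (chr6:120463181-120483731), the chain common to the receptors of that family, was at 0.706, 0.639 and 0.612 FPKM in control hearts against 1.90, 3.59 and 4.30 in the knockouts. It rose by 1.65 ± 0.26 on the log2 scale (limma, adjusted p = 0.0034), and it passed the filter through the knockouts alone. Il17rc (chr6:113471455-113483163), its partner for interleukin-17A, was at 0.977, 1.64 and 1.51 FPKM in control hearts against 2.50, 2.25 and 2.23 in the knockouts (0.61 ± 0.18, limma, adjusted p = 0.036). The call of Il17rc was lost with no filter (limma, adjusted p = 0.0832), with a replicate block (0.0755) and in each of the 6 fits that left out a library (0.0513 to 0.101). Il17rd, another chain of the group, was at 1.24 ± 0.06 and 1.16 ± 0.19 FPKM and was not called. Their ligand Il17a was listed at 0 in all 6 libraries, and Il17f was listed at 0 in all 3 knockouts.

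The remaining calls among the receptor chains were lower, and each was lost in some alternatives. Il10rb, a chain shared by the interleukin-10 group, lies in a locus merged with Ifnar2 and Gm21970, so the value belongs to all 3 genes. That locus was at 78.5, 76.7 and 88.1 FPKM in control hearts against 62.0, 48.7 and 54.9 in the knockouts (-0.55 ± 0.14, limma, adjusted p = 0.019), and its call was lost under the summed FPKM scaling (0.0855) and without any 1 of control replicates 1 to 3 (0.058, 0.0604 and 0.08). Il13ra1 (chrX:36112108-36171262), a chain for interleukin-4 and interleukin-13, was at 11.5, 10.8 and 13.1 FPKM against 9.36, 5.38 and 7.94 (-0.64 ± 0.20, limma, adjusted p = 0.041). Il13ra1 lost its call in 9 of 16 alternatives, with limma adjusted p from 0.0512 to 0.128, among them each fit without a control library and that without knockout replicate 3. Its ligands Il4 and Il13 were listed at 0 in all libraries.

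Receptor chains in neither direction included those of the interleukin-1 group: Il1r1 was at 2.42 ± 0.19 FPKM in controls and 2.79 ± 0.42 in knockouts, and the shared accessory chain Il1rap at 1.55 ± 0.30 and 2.02 ± 0.95. Il4ra, the partner of Il13ra1, was at 3.52 ± 0.23 and 4.34 ± 1.39 FPKM. Il10ra, the specific chain for interleukin-10, was at 1.37 ± 0.11 and 1.95 ± 0.23, with all knockouts above all controls and outside the threshold (0.39 ± 0.15, limma, adjusted p = 0.082). Il10ra passed under the summed FPKM scaling and with array weights (limma, adjusted p 0.0393 and 0.0104). The locus of Il4i1, a secreted amino acid oxidase that is neither ligand nor receptor, is merged with Nup62 and was at 8.31 ± 1.03 and 10.1 ± 1.1 FPKM. That locus passed under the same pair of settings (limma, adjusted p 0.0158 and 0.0341).

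**Figure D3:**
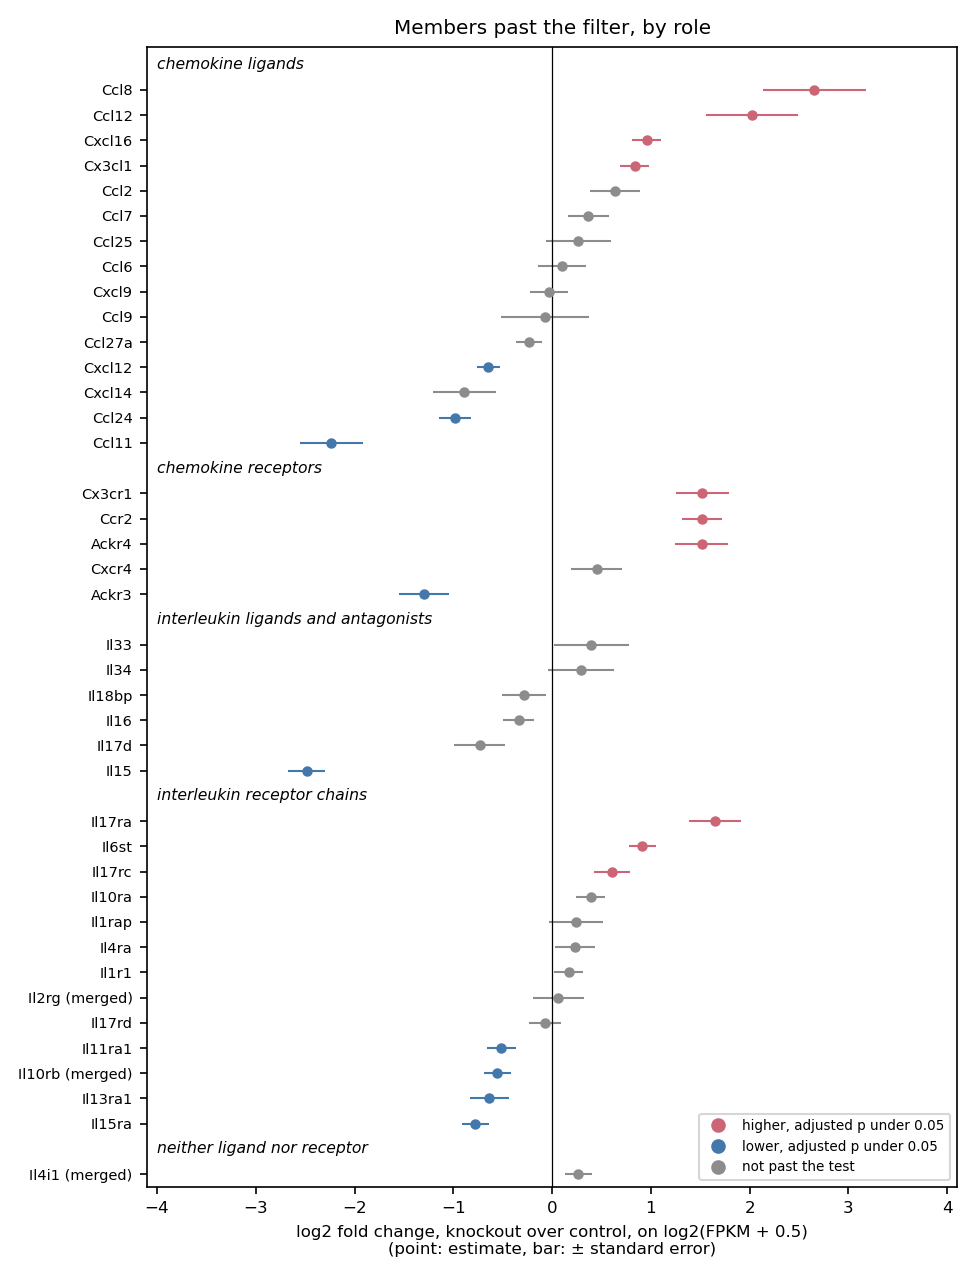
Log2 difference between knockouts and controls, with its standard error, of 40 tested members by role, on the log2(FPKM + 0.5) scale; red is called higher, blue lower and grey in neither direction. Among the chemokine receptors Cx3cr1 lies at 1.52 and Ackr3 at -1.30, and Il15 is the lowest point at -2.49.

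Ligands and receptors were also set side by side. Of 73 textbook pairs, both partners were tested in 10. Ccl12 with Ccr2 and Cx3cl1 with Cx3cr1 were both higher. Ccl12 and Ccr2 each passed the filter through the knockouts alone, so a difference was built into the selection of that pair. Cxcl12 with Ackr3 and Il15 with Il15ra were both lower. In the tested pairs of this list, 0 had partners called in opposite directions, and in 1 pair, Il33 with Il1rap, neither was called. Only 1 partner was called in Ccl2 and Ccl7 with Ccr2, Cxcl12 with Cxcr4, Il15 with Il2rg and Il34 with Csf1r. Outside the list, cardiotrophin (Ctf1), which signals through Il6st, was called lower while Il6st was called higher. In most pairs at least 1 partner was too low to test.

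The number of family loci above 0 was 77, 85 and 78 in the controls and 97, 98 and 98 in the knockouts. At least 1 FPKM was reached by 33, 34 and 34 in the controls and by 43, 45 and 39 in the knockouts. Over all 44450 loci, 17925, 18330 and 18318 were above 0 in the controls and 19667, 19539 and 19246 in the knockouts. Those at 1 FPKM or more were 11926, 11856 and 11864 in the controls and 12017, 12272 and 11753 in the knockouts. The knockout libraries were the deeper ones, as given above, and the part of depth in these counts was not tested. Of the 76 low members, 21 (27.6%) had all knockouts above all controls and 0 had all knockouts below, whereas over all 10322 low loci the shares were 10.4% and 8.27%. By role, the 21 were 8 of 15 low chemokine ligands, 6 of 15 chemokine receptors, 4 of 18 interleukin ligands and 3 of 27 receptor chains. Without knockout replicate 2, the library that stood apart, 26 were higher and 3 lower, against 14.4% and 11.6% of low loci.

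With the filter lowered to 0.1 FPKM, 31 of the low members could be tested, and 10 were called higher and 0 lower by limma (0 lower and 16 higher at an unadjusted p under 0.05). Of these 10, all but Cxcl10 and Ccr1 passed this filter through the knockouts alone, so a difference was built into their selection. Over all low loci at that filter 6.77% were called higher and 6.36% lower, and over all 16834 loci tested 12.5% and 14.9%. Most of these calls were lost when a library was left out, which also leaves fewer samples: the fits gave 2, 0 and 1 higher without control replicates 1, 2 and 3, and 3, 3 and 13 without knockout replicates 1, 2 and 3, with 0 lower each time. The share of all low loci called higher in those fits was 3.48%, 2.82% and 3.14% without a control and 4.32%, 5.59% and 8.77% without a knockout. Il6 was called in every one of those fits except that without control replicate 2. With no filter at all, limma called 8 higher and 0 lower of the 76 (18 higher and 0 lower at an unadjusted p under 0.05), beside 3.2% and 2.85% of all low loci and 8% and 9.45% of all 22503 loci that it tested.

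Il6, the classical acute-phase cytokine, was at 0.0411, 0 and 0.0681 FPKM in control hearts against 0.493, 0.269 and 0.382 in the knockouts, a separation at a very low level (limma at the 0.1 FPKM filter, adjusted p = 0.013). Il1rn, the antagonist of the interleukin-1 receptor, was listed at 0 in every control against 0.363, 0.231 and 0.135 in the knockouts (limma at that filter, adjusted p = 0.032). Il1b, the agonist it opposes, was at 0.472, 0.683 and 0.391 FPKM against 1.13, 2.18 and 0.833 (limma at that filter, adjusted p = 0.058, not called). Its antisense-type partner locus Il1bos overlapped between groups. Strand use is not stated, so the reads of this pair cannot be told apart. Il12b, a subunit of interleukin-12 and interleukin-23, was listed at 0 in control hearts against 0.164, 0.0256 and 0.0482 in the knockouts.

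The neutrophil attractants of chromosome 5 (chr5:90759298-90905938) were low in the controls. Cxcl1 was at 0.341, 0.499 and 0.547 FPKM in control hearts against 2.70, 4.03 and 0.684 in the knockouts (limma at the 0.1 FPKM filter, adjusted p = 0.053, not called). Cxcl5 was at 0.0635, 0.0480 and 0.0472 against 0.926, 0.640 and 0.193 (limma at the 0.1 FPKM filter, adjusted p = 0.037), and Cxcl2 at 0, 0 and 0.0350 against 0.364, 0.471 and 0.130 (adjusted p = 0.035). In all 3, knockout replicate 3 was the lowest knockout. Of the 8 neutrophil markers, Ly6g, Mpo and Elane were at 0 in all libraries but knockout replicate 2, S100a8, S100a9 and Ngp overlapped between groups, and Csf3r and Retnlg were under the filter with all knockouts above all controls. The part of neutrophils in these values was not tested. Cxcl10, an interferon-induced ligand, was at 0.0964, 0.365 and 0.143 FPKM against 1.67, 2.25 and 0.475 (limma at that filter, adjusted p = 0.034), and its receptor Cxcr3 at 0.0572, 0.0432 and 0.0425 against 0.310, 0.333 and 0.157 (adjusted p = 0.046). Cxcl13, the B cell attractant, held the highest value of any low member, with 0, 0 and 0.0675 FPKM in the controls and 0.0706, 7.36 and 3.69 in the knockouts, so its separation rested on a narrow gap at knockout replicate 1.

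Of the low CC ligands, Ccl3, a macrophage product that acts on Ccr1, was listed at 0 in control hearts against 0.116, 0.217 and 0.340 FPKM in the knockouts (limma at the 0.1 FPKM filter, adjusted p = 0.040). Ccl22, a ligand of Ccr4, was listed at 0 against 0.203, 0.336 and 0.0997. Ccl5, known from T cells, was at 0.244, 0.371 and 0.181 FPKM against 0.764, 1.94 and 0.445 (limma at the 0.1 FPKM filter, adjusted p = 0.083, not called). Each of these has knockouts above controls without overlap.

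Low receptors included neighbours of Ccr2 on chromosome 9. Ccr1, a receptor of myeloid cells for Ccl3 and Ccl5, was at 0, 0.178 and 0.200 FPKM in control hearts against 0.690, 0.570 and 2.01 in the knockouts (limma at the 0.1 FPKM filter, adjusted p = 0.030). Cxcr6, the receptor of Cxcl16, was at 0, 0.0391 and 0 against 0.261, 0.201 and 0.473 (adjusted p = 0.024), and the merged locus of Ccr9 was at 0 against 0.0390, 0.0163 and 0.0201. Ccr3 and Ccr1l1, in the same run, overlapped between groups. Elsewhere, Ccr7, the lymph node homing receptor, was at 0.0988, 0 and 0 FPKM against 0.345, 0.527 and 0.203 (limma at that filter, adjusted p = 0.030). Ackr2, a scavenger of inflammatory CC chemokines, was at 0.205, 0.465 and 0.330 FPKM against 0.517, 0.994 and 0.656 (limma at that filter, adjusted p = 0.083, not called).

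Of the low interleukin receptor chains, Il3ra was at 0.728, 0.330 and 0.703 FPKM in controls and 0.933, 1.73 and 0.932 in knockouts. Il21r was at 0, 0.194 and 0.191 against 0.426, 0.391 and 0.352, and Il7r at 0.0294, 0.111 and 0.0437 against 0.114, 0.114 and 0.121, a gap of a few thousandths. At the 0.1 FPKM filter Il3ra, Il21r and Il7r were tested and not called (limma, adjusted p = 0.097, 0.0599 and 0.454). Il1rl2 and Il27ra reached 1 FPKM in at least 1 library and overlapped between groups (means 0.734 and 0.982 FPKM, and 0.765 and 1.09).

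**Figure D4:**
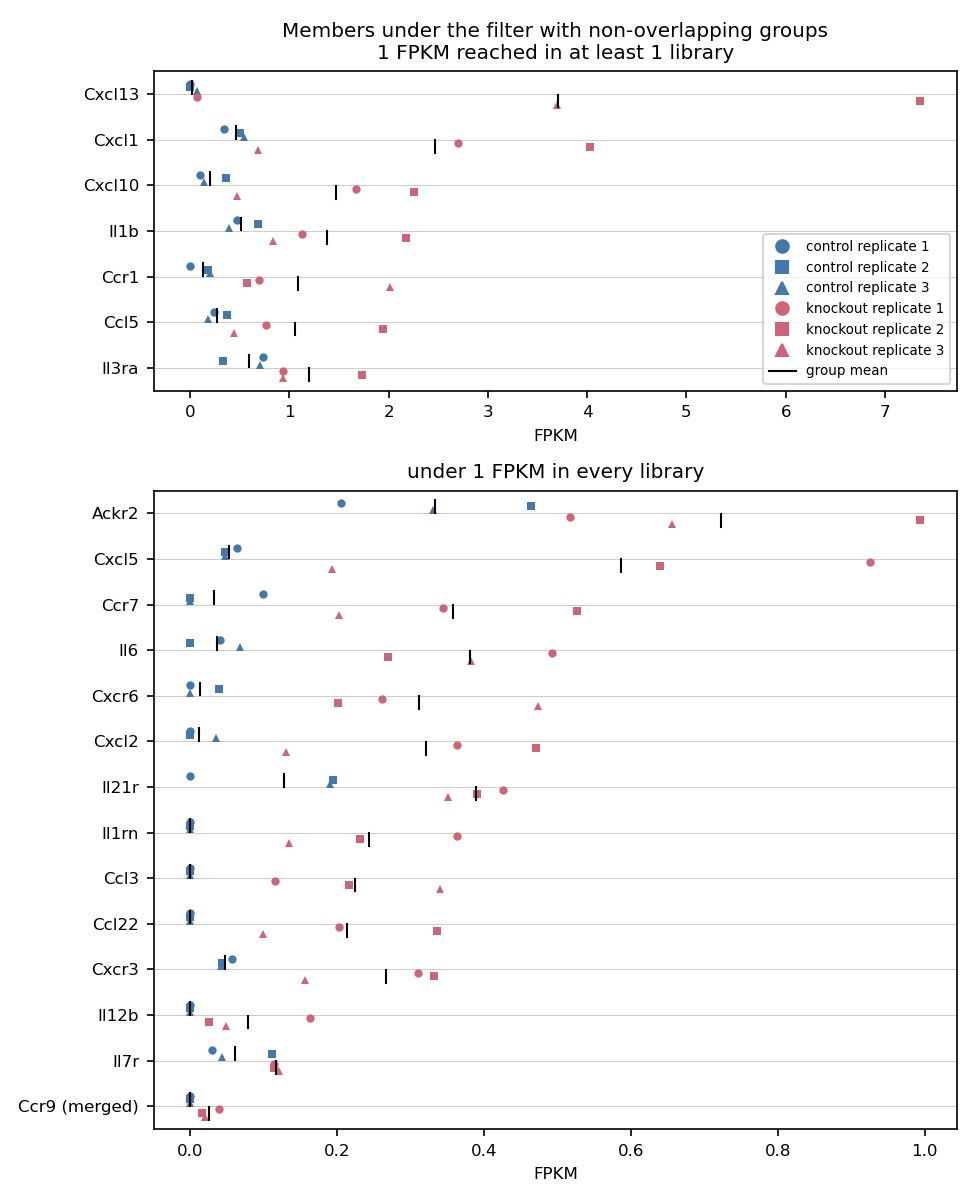
FPKM in each library of the 21 members under the filter whose groups do not overlap, with blue for controls, red for knockouts and a bar at each group mean; the upper panel holds those that reach 1 FPKM. All 21 have the knockouts above the controls, and Cxcl13 spreads from 0.0706 to 7.36 FPKM among the knockouts.

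Of the low members, 23 were listed at 0 in all 3 controls and 3 in all 3 knockouts, the latter being Il17f, Ccl21a and Il13ra2. The same shares over all low loci were not counted, and the knockout libraries were the deeper ones. In 5, the controls were all at 0 and the knockouts all above 0 (Ccl3, Il1rn, Ccl22, Il12b and the Ccr9 locus), beside 2.86% of all low loci. The 52 low members that overlapped and stayed under 1 FPKM reached at most 0.837. The 27 loci listed at 0 in all libraries were Ccl1, Ccl19, Ccl20, Ccl21b, Ccl26, Ccl27b, a second Ccl27a locus, Cxcl15, Cxcl17 and Cxcr1, and Il3, Il4, Il9, Il13, Il17a, Il20, Il21, Il22, Il24, Il25, Il31, Il1f5, Il1f6, Il1f8, Il1f10, Il20ra and Il1rapl2. Most of these interleukins are known as products of activated lymphocytes or epithelium.

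The rest of the pathway was read from textbook lists. Their counts stand beside 16.1% called higher and 19.5% lower over all tested loci. Of 10 other chemotactic ligands and receptors tested, 3 were called higher and 1 lower. Mif, a cytokine that also binds Cxcr4, was at 62.7 ± 1.6 FPKM in controls and 227 ± 26 in knockouts (SD, n = 3; log2 difference 1.84, limma, adjusted p = 0.00031). C3ar1, the receptor of a complement fragment, rose by 1.04 (limma, adjusted p = 0.0031). It passed the filter through the knockouts alone, so a difference was built into its selection. Ccrl2, an atypical chemokine-like receptor, fell by 0.81 (limma, adjusted p = 0.018). Its adjusted p was 0.0653 under the summed FPKM scaling, and 0.0559 and 0.0664 without control replicates 1 and 3 (limma).

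Ctf1, or cardiotrophin-1, which signals through Il6st, fell by 1.16 (1.81 ± 0.12 to 0.544 ± 0.146 FPKM, limma, adjusted p = 0.0032). It passed the filter through the controls alone, so a difference was built into its selection too. Of the 10 other cytokines tested, 2 were called higher and 2 lower, with Flt3l, merged with Rpl13a, among the higher loci; Ifng, Ifnb1, Csf3 and the second of the Clcf1 loci were listed at 0 in all libraries, and the first Clcf1 locus was tested and not called. Kitl, the ligand of Kit, fell by 0.67 (limma, adjusted p = 0.042), a call lost in 11 of 16 alternatives. Of 15 other cytokine receptors, 6 were called higher and 4 lower, 1 of the lower being Ifnar2, whose locus is the merged one already counted for Il10rb. Tnfrsf12a, the receptor of Tweak, was at 22.1 ± 11.3 and 87.9 ± 33.5 FPKM (2.03, limma, adjusted p = 0.013), the growth hormone receptor Ghr at 59.6 ± 1.6 and 19.9 ± 2.2 (-1.56, limma, adjusted p = 0.00035), and the merged Prlr locus at 3.44 ± 0.92 and 1.04 ± 0.57 (-1.40, limma, adjusted p = 0.011).

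Most signalling genes behind the receptors were in neither direction, as were most of all tested loci, of which 35.7% were called. Of 21 JAK, STAT and SOCS genes, 3 were higher and 3 lower; Ptpn6, a phosphatase of blood cells, rose by 1.22 (limma, adjusted p = 0.0016), and Socs7 and Stat5b fell by 0.64 and 0.59 (limma, adjusted p = 0.012 and 0.0069). The calls of Socs7 and Stat5b were lost under the summed FPKM scaling (0.0645 and 0.0791), and that of Socs7 also without control replicate 2 (0.0539). Of 26 interleukin-1 and NF-kappaB genes, 4 were higher and 0 lower in limma (4 and 2 at an unadjusted p under 0.05), led by the kinase Irak4, which rose by 0.98 (limma, adjusted p = 0.0041). Nfkbiz and the adaptor Myd88 rose by 0.80 and 0.53 (limma, adjusted p = 0.018 and 0.030). The call of Nfkbiz was lost without control replicate 1 (0.0573) and without knockout replicate 1 (0.0554), and that of Myd88 in 7 of 16 alternatives, among them removal of control replicates 1 or 3 and of knockout replicates 2 or 3. Of 16 genes that couple chemokine receptors to the cell, 4 were higher and 2 lower. Rgs2, which shortens G protein signals, was at 23.5 ± 10.4 and 3.56 ± 1.57 FPKM (-2.57, limma, adjusted p = 0.0029). Elmo1, which links receptors to Rac in migrating cells, rose by 0.76 (limma, adjusted p = 0.0065), and Adrbk1, a receptor kinase, fell by 0.63 (limma, adjusted p = 0.025), a call lost in 5 of 16 alternatives, among them removal of control replicates 1 or 3 and of knockout replicate 3.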

How the data were processed

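Total RNA of whole hearts was sequenced in 3 control and 3 knockout libraries; the 6 libraries of RNA ends (PARE) in the series were not analysed here. The authors deposited 1 table of FPKM values per library over 44450 assembled loci, per the file headers. The submitters' processing notes name bedtools, Cuffdiff, Cufflinks 2.2.1, HISAT 0.1.6, HISAT2 2.0.1, Picard 1.23, SAMtools 1.3 and StringTie 1.1.0, and the builds GRCm38 and mm10. The sources used here do not state which tool made which step, the annotation, the strand setting or how the FPKM were scaled. The files hold no read totals, so relative depth was taken from the most frequent ratio of low values between libraries.

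From these values, log2(FPKM + 0.5) was fitted with limma 3.58.1 in R 4.3.3, with a mean-variance trend, two-sided, on the 12181 loci that reached 1 FPKM in 3 or more libraries. Benjamini-Hochberg adjustment ran over all of them, and a locus was called at an adjusted p under 0.05. The fit was tested on simulated data. The members, gene lists, pairs and motifs were chosen with earlier results of these data known, and the TATA box motif after the sequences were seen. Every called member is given by library, every other tested member by group means, low members where the groups do not overlap or a library reaches 1 FPKM, and of each pathway list up to the 3 called genes with the largest change. Positions are those of RefSeq on GRCm38.p6, matched by symbol for all 142 symbols. Protein sequences were not used here. A called member and a called pathway gene enter the counts but are not reported here. Alternatives were other pseudocounts (0.1 and 1), filters (0.1 FPKM and none), 3 scalings, no trend, array weights, a replicate block and leaving out each library. Leaving out libraries for the low members was added after the data were seen.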

Additional observations from a re-analysis of the deposited data

How the results depend on the processing

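Of the 20 called members, 15 kept their call in all 16 alternatives, and 5 (Ccl12, Il17rc, Il11ra1, Il13ra1 and the Il10rb locus) lost it in some. Against 11 family members called higher and 9 lower, dropping the filter gave 18 higher and the filter of 0.1 FPKM gave 21, since more loci are tested. Leaving out 1 library gave 9 to 12 higher and 6 to 9 lower, and over all loci 1212 to 2153 higher and 1409 to 2389 lower; in low members at 0.1 FPKM it gave 0 to 13 higher. Scaling to the same summed FPKM gave 3229 loci higher and 1402 lower, and the cause was not tested. Counting detection from 1 FPKM gave medians of 34 members per control and 43 per knockout library, in place of 78 and 98 above 0.

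Of the members in neither direction, 9 changed sign in some fit, and the cause was not tested. Array weights gave -0.0231 for Il1r1, 0.0499 for Ccl9, -0.30 for Ccl6, 0.0449 for Il17rd and 0.0485 for Il18bp. The summed FPKM scaling gave 0.12 for Ccl9, 0.0886 for Il17rd and 0.14 for Cxcl9. Leaving out 1 library gave log2 differences of -0.46 to 0.33 for Ccl9, -0.0642 to 0.34 for Ccl6, -0.14 to 0.0233 for Il17rd, -0.0488 to 0.44 for Il1rap, -0.16 to 0.13 for Cxcl9, -0.0897 to 0.51 for Ccl25 and -0.16 to 0.37 for the Il2rg locus.

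With the replicate number as a block, the fit called 1536 loci higher and 1807 lower, with 10 and 8 in the family; the calls lost were Il17rc and Il11ra1. Deviations of same-numbered libraries correlated at -0.08, -0.06 and -0.01 across loci, and 0 of 3 controls correlated best with the knockout of its number. With 3 libraries per group, these values cannot decide whether the numbers pair the samples. Depth is unknown beyond the relative scale, and a value of 0 is a listed value, not absence.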
